A study of Mus musculus with 4 samples.

Results

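Of 8323 regions bound by Wapal in mouse embryonic stem cells (ESCs), 220 had their centre in an exon and more than 2000 bp from every annotated transcription start site (TSS). These 220 exonic Wapal sites are 2.64% of all sites and 7.35% of the 2994 sites with a centre in a gene body away from a TSS. The rule used position alone, namely the centre of each region against the exons and starts of every transcript of the GENCODE M1 annotation of the mm9 genome, so that scores, widths and sequences played no part in it. Sites were the regions of the joined list of both Wapal clones that shared no base with a region of the BirA list. The other sites lay within 2000 bp of a TSS (824), in introns (2774) or outside genes (4505).

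The study located Wapal on chromatin by tagging it with a Flag and a biotin-acceptor peptide, pulling biotinylated chromatin down on streptavidin beads and sequencing the DNA. The experiment had 4 samples. Of these, 2 were independently derived FB Wapal clones, made by electroporating a Flag/biotin-tagged Wapal cDNA into ESCs that already expressed the bacterial biotin ligase BirA. The BirA line without tagged Wapal was the negative control, the equivalent of an IgG pulldown, and the fourth sample was an input of sheared DNA, labelled as coming from cells engineered to express the biotinylatable Wapal. All 4 samples were ESCs of a CJ9-derived line, and the tagged protein was expressed from a transgene beside the endogenous gene and below its level. The 2 clones were joined in 1 list by a rule that is not stated in the sources used here, so that no site could be compared between clones and no spread over samples could be given. The ESC identity cannot be checked from lists of bound regions.

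Wapal is the factor that releases cohesin, the ring-shaped complex that holds sister chromatids together and extrudes chromatin loops. Much of the cohesin on mammalian chromosomes stops at sites of the zinc finger protein CTCF, whose binding motif is directional and can lie in any part of a gene. Exons carry constraints that introns lack, since a binding motif inside a coding exon also spells codons.

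The sequences below show what such a motif looks like inside protein-coding bases, for the 8 highest-scoring sites whose best match to the CTCF core lay wholly in coding sequence. Each is a 30-base window of mm9 read 5′ to 3′ on the strand of the motif, with the 12 bases of the core match in capitals.
Kif27, chr13:58389389-58389418, + strand, against the gene: tgcagttggCCACTGGAGGGCgctatcgag
Sfpi1, chr2:90955404-90955433, + strand, with the gene: gatgacctaCCAGAAGATGGCgcgcgcgct
Eri1, chr8:36532209-36532238, - strand, with the gene: tcatccttaCCAGTAGAGGGCgctccagct
Lrrk1, chr7:73445763-73445792, - strand, with the gene: ccctgttcaCCACCAGAGGGCgccagcgtt
Gabrp, chr11:33454298-33454327, - strand, with the gene: cagctccttACAGCAGATGGCagtcaaaga
Gpr98, chr13:81578549-81578578, + strand, against the gene: tgattttgcTCACTAGGTGGCgcccaagga
Adamts10, chr17:33690051-33690080, - strand, against the gene: gaaatttgaGCACCAGGGGGCagtaagcca
Dst, chr1:34275342-34275371, + strand, with the gene: acaagacggCCAGCAGGTGGCgccagacac
The matches of Eri1, Lrrk1 and Dst had no mismatch to the core, and the other 5 had 1. The mismatch was at the first base of the core in Gabrp, Gpr98 and Adamts10, at position 5 in Sfpi1 and at position 6 in Kif27, counted from 1 at the 5′ end of the capitals. All 8 core matches lay within 100 bp of their site's centre. They lay in exon 17 of 17 of Kif27, exon 5 of 5 of Sfpi1, exon 7 of 7 of Eri1, exon 12 of 34 of Lrrk1, exon 9 of 10 of Gabrp, exon 67 of 90 of Gpr98, exon 25 of 25 of Adamts10 and exon 53 of 98 of Dst.

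Exonic sites were somewhat denser than intronic ones. Away from TSSs, exons held 4.08 site centres per Mb (95% exact Poisson interval 3.56 to 4.65; 220 sites in 54.0 Mb), against 3.21 per Mb in introns (3.09 to 3.33) and 3.12 per Mb outside genes (3.03 to 3.21). The density within 2000 bp of a TSS was 4.20 per Mb (3.92 to 4.50), within the exonic interval. These intervals, like those that follow, cover counting error only, since regions of 1 list are not replicates.

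The intervals of the kinds of exon overlapped one another. Coding bases held 3.52 sites per Mb (2.79 to 4.37; 81 sites in 23.0 Mb), an interval that contains the intronic density. The 3′ untranslated regions (3′ UTRs) held 4.12 per Mb (3.33 to 5.05; 93 sites in 22.5 Mb), and exons of non-coding transcripts 5.12 per Mb (3.68 to 6.95; 41 sites in 8.00 Mb). The latter interval lies above that of introns, while that of 3′ UTRs meets it at its lower end. Of the 41 sites in exons of non-coding transcripts, 21 lay in protein-coding genes and 20 in other genes. The 5 sites in 5′ UTRs gave 12.97 per Mb with a wide interval (4.21 to 30.3), because only 0.386 Mb of 5′ UTR lies that far from a TSS. Base composition moved with these classes, with 50.6% G and C in coding bases, 43.2% in 3′ UTRs, 42.2% in introns and 40.8% outside genes, and its part in the densities was not tested.

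Exons were also richer in the CTCF core itself than introns. The share of exact matches that lay in a Wapal site was lowest in coding sequence, with an interval that overlaps those of the other kinds of exon. The core motif was searched on both strands as 12 letters with alternative bases at some positions. Exact matches occurred at 8.49 per Mb of exon, 5.31 per Mb of intron and 4.21 per Mb outside genes. In coding bases, 16 of 181 exact matches lay in a Wapal site, which is 8.84% (95% Wilson interval 5.51 to 13.9). In introns it was 806 of 4587, or 17.6% (16.5 to 18.7), and outside genes 1351 of 6073, or 22.2% (21.2 to 23.3). The coding share thus lay below both, with intervals that do not overlap. Over all exons it was 13.3% (10.5 to 16.7; 61 of 458), an interval that overlaps that of introns. The share in 3′ UTRs was 15.4% (11.1 to 21.1; 31 of 201) and that in non-coding exons 17.8% (10.7 to 28.1; 13 of 73). Both intervals include the intronic share, and both overlap the coding interval. Within 2000 bp of a TSS the share was 11.4% (9.89 to 13; 182 of 1603). That interval lies within the coding one and below that of introns. With 1 mismatch allowed, the share was 1.79% (1.38 to 2.32) in coding bases and 3.84% (3.12 to 4.72) in 3′ UTRs. It was 2.93% (2.54 to 3.38) over all exons and 3.08% (2.96 to 3.20) in introns. Among these exonic classes, again only the coding interval lay below that of introns. The interval within 2000 bp of a TSS also lay below that of introns, with a share of 2.69% (2.49 to 2.91).

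**Figure D1:**
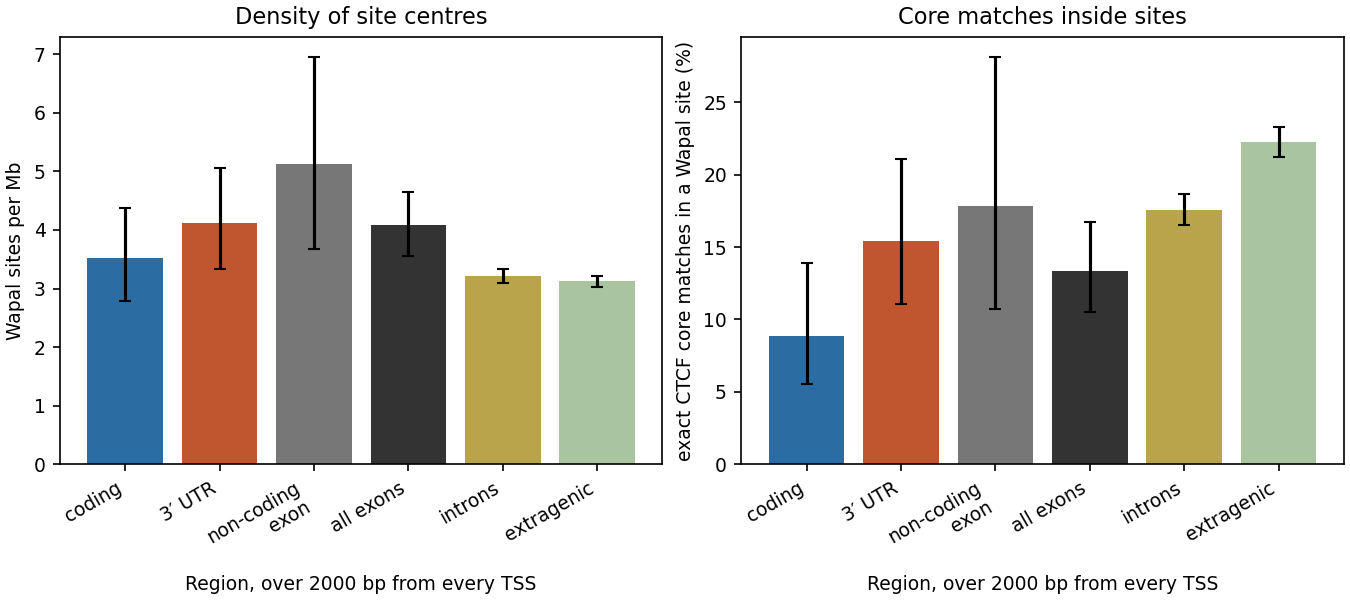
Left, Wapal site centres per Mb in each region class over 2000 bp from every TSS, with 95% exact Poisson intervals as error bars. Right, the percentage of exact CTCF core matches in each class that lie in a Wapal site, with 95% Wilson intervals. Exons exceeded introns in site density, 4.08 against 3.21 per Mb. Among the classes shown, coding core matches were the least often in a site, at 8.84%. The coding interval overlaps those of 3′ UTRs and non-coding exons.

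The BirA list removed little from exons. Of the 8497 regions of the joined list, 174 shared a base with a BirA region (2.05%), and of the 226 with an exonic centre by the same rule, 6 did so, or 2.65% (1.22 to 5.67). The removed regions lay in Hist1h2be, Frem2, Gm13230, Dennd5b, Rdh13 and Zscan22, with scores from 50.68 to 205.59 for Frem2.

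By kind of base at the centre, 93 of the 220 sites were in 3′ UTRs (42.3%), 81 in coding sequence (36.8%), 41 in exons of non-coding transcripts (18.6%) and 5 in 5′ UTRs (2.27%). Those classes make up 41.8%, 42.7%, 14.8% and 0.715% of exonic bases away from TSSs. Where any base in an exon counted in place of the centre, 64.8% of sites were coding, and the order of coding and 3′ UTR turned. For 34 sites the kind differed among transcripts, and coding was then given precedence over 3′ UTR, 5′ UTR and non-coding, in that order. The sites lay in 214 genes, and 200 of the 220 lay in genes annotated as protein-coding, 14 in lincRNA genes, 5 in genes of processed transcripts and 1 in a pseudogene.

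Most sites lay in last exons, which also hold most exonic bases away from TSSs. Last exons held 142 sites (64.5%; 58.0 to 70.6) and 62.1% of those bases, internal exons 74 sites (33.6%; 27.7 to 40.1) and 36.6% of the bases, first exons 2 sites and genes of a single exon 2. Per Mb, this was 4.24 sites in last (3.57 to 5.00) and 3.75 in internal exons (2.94 to 4.70), with intervals that overlap. The order depends on the use of the centre, since among the 642 sites with any base in an exon 35.4% were assigned to last and 64.0% to internal exons. Of the 81 coding sites, 63 were in internal and 18 in last exons, whereas 91 of the 93 sites in 3′ UTRs were in last exons. The scarcity of first exons follows from the distance to the TSS that the rule demands. The first exons were those of the lincRNA gene Gm17414 (score 103.93) and of a retained-intron transcript of Kazn (77.57), both about 3 kb long, at 2956 and 3172 bp. The single-exon genes were Gpr3, an orphan G-protein-coupled receptor (109.18), and Gm1337 (57.87).

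Internal and last exons differed in how much of a site they could hold. Sites had a median width of 831 bp (quartiles 750.2 and 1013 bp), and the median internal exon was 151.5 bp long against 2054 bp for last exons. As a result, 67 of 74 internal exons but 26 of 142 last exons were shorter than the site lying on them. A median of 20.5% of the bases of a site centred in an internal exon were exonic, against 99.4% for last exons, and 75 of the 220 sites were exonic throughout. A centre in an internal exon therefore places the site over the exon and its flanking introns alike. Trim56, which encodes a ubiquitin ligase, had the longest exon, a last exon of 9018 bp, and its site scored 82.30 with an exact core match.

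**Figure D2:**
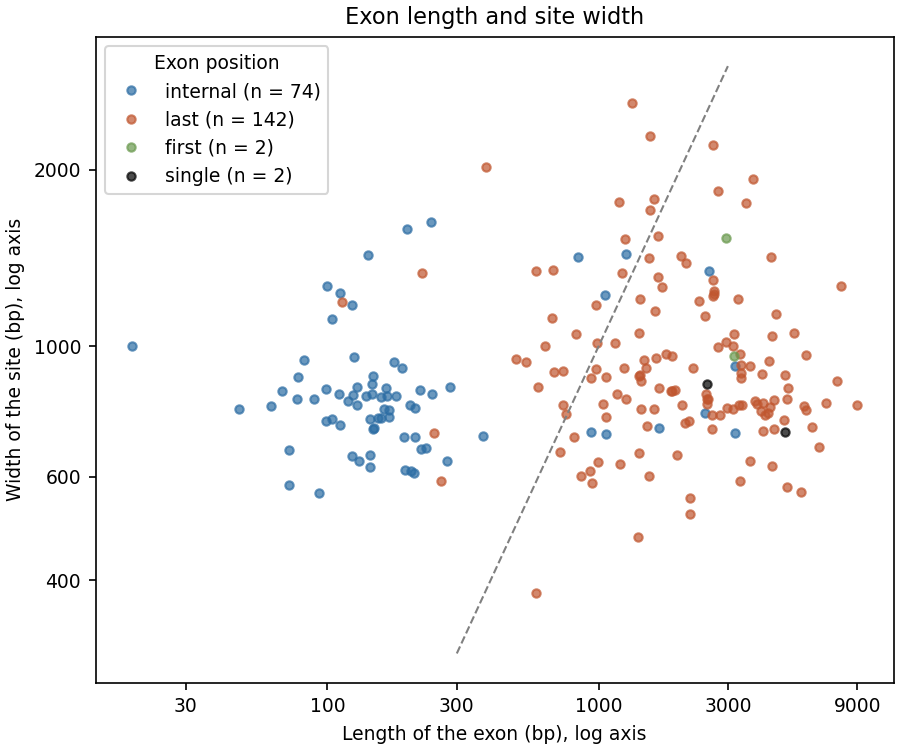
Width of each of the 220 exonic Wapal sites against the length of the exon that holds its centre, both in bp on log axes, coloured by the position of the exon in its transcript. The dashed line marks equal length. Internal exons (median 151.5 bp) lie mostly to its left, so the site is longer than the exon, and last exons (median 2054 bp) mostly to its right.

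Sites in last exons were close to gene ends, which follows largely from their class, since a last exon ends its transcript. The distance from the centre to the end of the gene had a median of 1.07 kb for last exons and 24.8 kb for internal exons, and 99 of the 142 sites in last exons were within 2.0 kb of it. Within last exons the centres lay at a median of 53.1% of the exon's length from its 5′ edge (quartiles 25.6% and 75.5%). The nearest TSS belonged to another gene for 96 of the 220 sites, including 63 of the 142 in last exons. The distance to the nearest TSS was 2.02 to 351 kb, with a median of 13.3 kb. Sites in last exons and in 3′ UTRs had another Wapal site at medians of 47.9 and 45.7 kb, against 76.9 kb for internal exons and 74.1 kb over all sites.

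Wide sites made up a larger share of exonic than of intronic sites. At 1000 bp or more, a width chosen after the values were seen, 59 of the 220 exonic sites qualified, or 26.8% (21.4 to 33.0), against 15.6% (14.3 to 17.01) of intronic sites and 18.6% (17.4 to 19.7) of extragenic ones. Within exons, the share was 32.4% (25.2 to 40.5) in last and 16.2% (9.53 to 26.2) in internal exons, with intervals that overlap slightly, and 32.5% (29.4 to 35.8) of sites within 2000 bp of a TSS were as wide. Among the widest were those of Gm16954 (2280 bp), Aars, the alanyl-tRNA synthetase (2204 bp), 1700029H14Rik (2019 bp) and BC032203 (1925 bp), each in a last exon. Of these 4, Gm16954 and 1700029H14Rik held an exact core match, while Aars had 1 mismatch and BC032203 had 2.

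The score is the one the peak caller MACS gave each region, -10 times the log10 of its p-value, so that it ranks regions but does not measure occupancy. The median score of exonic sites was 80.89 (quartiles 61.71 and 115.3) against 81.36 for all sites. The median was 76.59 within 2000 bp of a TSS, 79.26 in introns and 83.99 outside genes. Among the 832 highest-scoring of all sites, 27 were exonic, which is 12.3% of exonic sites.

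Scores varied more within each kind of exon than between kinds. The medians were 77.4 for coding, 76.53 for 3′ UTR and 90.93 for non-coding sites, and the quartiles of all 3 overlapped (59.59 to 115.2, 62.19 to 109.1 and 64.85 to 135.1). Coding sites in internal exons had a median of 68.57 and those in last exons 91.77. Non-coding sites reached a score of 100 in 20 of 41 cases (48.8%), against 29 of 81 coding (35.8%) and 28 of 93 sites in 3′ UTRs (30.1%). Of all 8323 sites, 2878 did so (34.6%), and the non-coding share rests on few sites. It was made up of 9 of 21 sites in protein-coding genes and 11 of 20 in other genes.

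**Figure D3:**
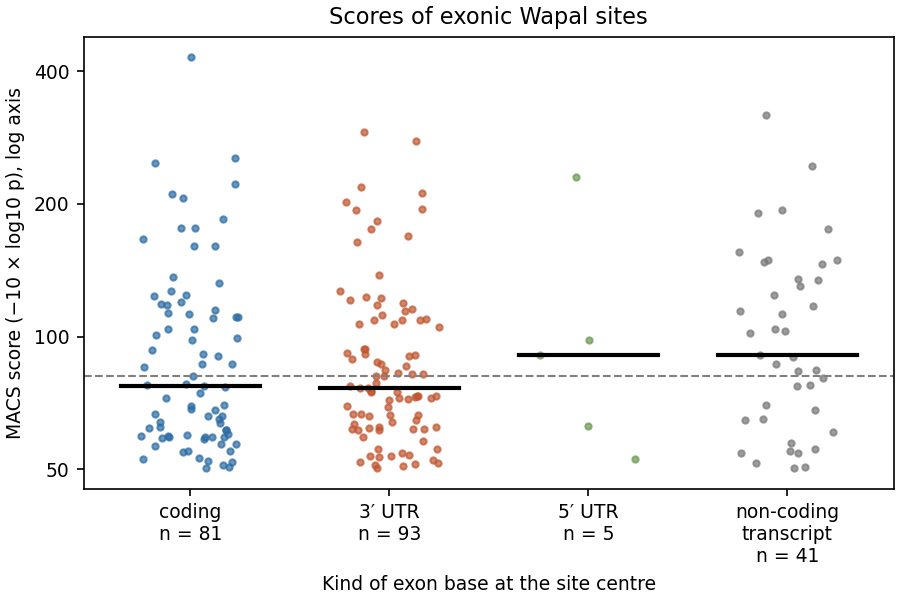
MACS score (log axis) of each of the 220 exonic Wapal sites by the kind of exon base at its centre. Black bars are medians and the dashed line is the median of all 8323 sites, 81.36; the kinds overlap across most of their range, and the Kif27 site stands highest at 430.64.

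The strongest exonic site was coding. It lay over part of the last exon of Kif27, a kinesin-family gene (chr13:58388954-58389862), scored 430.64 and ranked 12 among all 8323 sites. The centre of this site lay in exons of 2 genes, the only such case among the 220 sites. Its gene and its kind thus rest on the order of precedence used here, in which coding comes first. The core match of the site, printed above, lay 4 bp from the centre on the strand opposite to Kif27. The next coding sites were Snx10, a sorting nexin of endosomes (254.29, internal exon 5 of 7), Sfpi1, which encodes the blood-cell transcription factor PU.1 (248.04, last exon), and Bmpr1b, a type I receptor for bone morphogenetic proteins (222.59, internal exon 6 of 11). The core match of Snx10, whose exon is 99 bp long, had 1 mismatch and lay outside the exon. That of Bmpr1b, with an exon of 139 bp, also had 1 mismatch and crossed the edge of the exon by 1 base.

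Among 3′ UTRs, the highest scores were those of Rnf150, a RING-finger gene (291.05), Osbpl3, an oxysterol-binding protein (278.71), and Dcp1b, a component of the mRNA decapping complex (218.62). The core matches of Rnf150 and Dcp1b were exact, the former against and the latter with the direction of the gene. Osbpl3 had 2 mismatches. The Rnf150 site took up 1265 bp of a last exon of 7836 bp.

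Exons of non-coding transcripts held 16 sites in processed transcripts, 11 in transcripts with a retained intron, 9 in lincRNAs and 3 in antisense transcripts, with 1 each in a nonsense-mediated decay and a pseudogene transcript. The strongest was at a processed transcript of Nt5m, which encodes a mitochondrial nucleotidase (318.35, rank 77 of all sites), followed by 5330413P13Rik (243.42). Among the 5 sites in 5′ UTRs, BB014433 scored 229.97. The others were Ndp, which encodes norrin, a ligand of the Wnt receptor pathway (97.96), Gm10787 (90.92), E330013P04Rik (62.50) and Csgalnact1, an enzyme of chondroitin sulfate synthesis (52.68). Only Gm10787 of these 5 held an exact core match.

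No gene had more than 2 exonic sites, and 6 had exactly 2. In the lincRNA gene Nkx2-2as, transcribed opposite to the homeobox gene Nkx2-2, both sites lay in the same exon of 3178 bp, with scores of 191.11 and 175.77 and centres 2.40 kb apart. Both had a core match with 1 mismatch on the strand opposite to Nkx2-2as. In Slc6a2, the noradrenaline transporter, a coding site in exon 13 (99.03) and a 3′ UTR site in exon 14 (50.40) were 1715 bp apart. In A230028O05Rik they were 3.07 kb apart, with an exact match at the stronger site (149.17) and 1 mismatch at the weaker (54.47).

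The Bmpr1b sites were 23.8 kb apart, in coding exon 6 (222.59) and in the 3′ UTR (89.08). A further exonic site, in the 3′ UTR of the neighbouring gene Unc5c, a netrin receptor (182.57, exact match), lay 7.89 kb beyond the latter. The core match pointed to the + strand in exon 6 of Bmpr1b and to the - strand at the other 2 sites of this stretch. Prex2, an activator of the GTPase Rac, had coding sites in exons 16 and 30 of 40 (58.90 and 57.16), each with 2 mismatches, and 3 more in its introns. Csgalnact1 had a coding site (118.56) in addition to that in its 5′ UTR, 194.9 kb away.

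Other sites of the same gene were mostly intronic. Of the 214 genes, 53 had a further Wapal site, 46 of them in an intron and 6 near a TSS. Over all sites, too, introns held more, with 2774 against 824 near a TSS and 220 in exons. Gene length was not accounted for. Etl4 had the most in introns, 7, beside a coding site of score 54.90. The exonic site closest to any other Wapal site was in the last exon of Phactr3, a regulator of phosphatase and actin, with 1276 bp between the centres.

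The share of exonic sites with a CTCF core was close to that of all sites. At most 1 mismatch was found in 167 of the 220 sites (75.9%; 69.8 to 81.1), against 74.5% of all 8323 sites, and an exact match in 61 (27.7%; 22.2 to 34.0), against 28.3%. Windows of the same width 5 kb to either side of exonic sites held such a match in 51 of 440 cases, or 11.6% (8.93 to 14.9), and an exact one in 0.682%. Of the remaining sites, 48 had 2 mismatches and 5 had 3, among them those in Wapal, AU022252, Pde3a and Gpatch1.

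The intervals of this share overlapped among kinds of exon. It was 81.7% (72.7 to 88.3) in 3′ UTRs, 80.5% (66.0 to 89.8) at non-coding exons and 69.1% (58.4 to 78.1) at coding exons. Exact matches were found at 33.3% (24.6 to 43.4) of sites in 3′ UTRs and 21.0% (13.5 to 31.1) of coding sites. Of the 31 sites in 3′ UTRs of 1000 bp or more, 29 had a match with at most 1 mismatch (79.3 to 98.2%), against 47 of 62 narrower ones (63.8 to 84.8%). These intervals overlap. Coding sites had a match in 73.3% of wide and 68.2% of narrower cases. Non-coding sites went the other way, with 72.7% and 83.3%. Over all sites the wide ones had a match in 72.9% of cases and the narrower ones in 74.8%.

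Core matches lay near the centres. Their median distance from the centre was 50.0 bp at exonic and 41.0 bp at all sites, and 73.1% and 79.3% were within 100 bp. In 3′ UTRs 69.7% were that close, and in internal exons 80.8%.

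**Figure D4:**
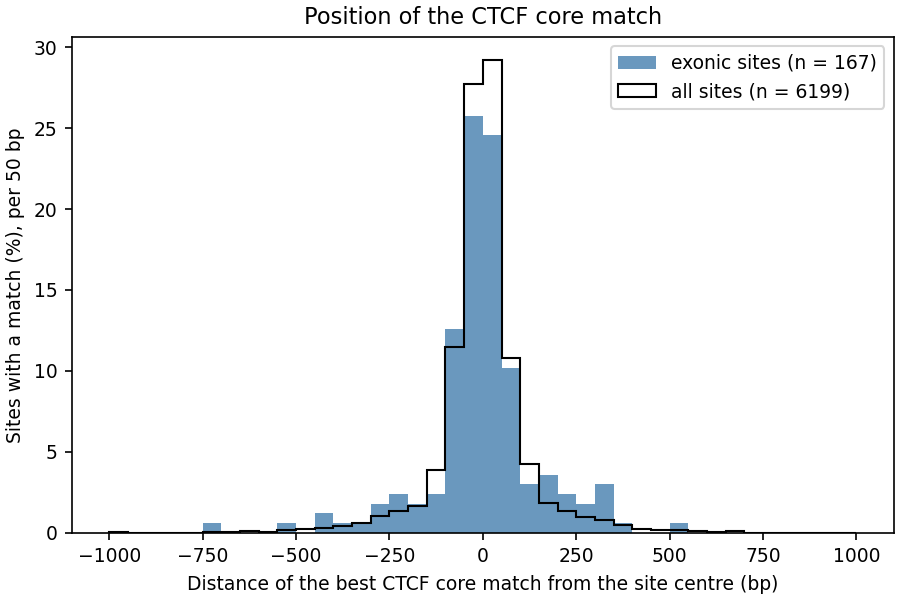
Distance in bp of the best CTCF core match, with at most 1 mismatch, from the centre of the site, as the percentage of sites with a match per 50-bp bin. Filled bars are the 167 exonic sites and the line is the 6199 of all sites; both peak at the centre, with median distances of 50.0 and 41.0 bp.

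Whether the match itself lay in the exon varied with the exon's position. It did so wholly at 104 of 112 last-exon sites (92.9%; 86.5 to 96.3) and at 31 of 52 internal-exon sites (59.6%; 46.1 to 71.8). For sites with a coding centre, 34 of 56 matches were wholly exonic, 4 crossed the edge of an exon and 18 had no base in an exon. In 3′ UTRs, 71 of 76 were wholly exonic.

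Core matches were found in both directions relative to the gene. The match was on the gene's strand at 78 of 167 sites, or 46.7% (39.3 to 54.3), with 31 of 56 at coding, 34 of 76 at 3′ UTR and 12 of 33 at non-coding sites. Of the 78 sites with a score of at least 100, 61 had such a match, and among these the share on the gene's strand was 36.1% (25.2 to 48.6). At coding centres, 31 matches were wholly within coding bases, 19 on the gene's strand and 12 against it. Read along the gene's strand, the first of the 12 matched bases fell on codon positions 1, 2 and 3 in 6, 6 and 7 of the former. For the latter it did so in 2, 8 and 2. In matches against the gene, that base is the last of the core. These numbers are too small to separate the positions.

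Wapal itself carried an exonic site. It spanned chr14:35504771-35505994, scored 160.17, ranked 883 among all sites and covered all 1053 bases of coding exon 3 of 19 (35504868 to 35505920), reaching 97 bp before and 74 bp past the exon. That exon is the longest wholly coding exon of the gene, and 86.0% of the site was coding sequence. The best core match had 3 mismatches, which is more than 2, as at 3.51% of all sites. No other region of the joined list lay in the gene or within 20 kb of it, and no BirA region did. Both FB Wapal clones carry a Wapal cDNA, and reads from the transgene and from the endogenous exon cannot be told apart. The input is labelled as coming from cells with the same modification. Leaving this site out moved no recomputed share, median or density beyond its counting interval or spread. A single site of 220 could hardly have done so, and this says nothing about the origin of its reads. Of the 220 sites, 5 had both edges within 100 bp of the edges of their exon, among them those of Wapal, Nfe2l3, Slc36a2 and Cdk20. Wapal scored highest of the 5, and the others scored 65.86 to 93.23.

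Groups of genes chosen for their functions contributed few sites each. Of 22380 protein-coding genes, 196 had an exonic site (0.876%) and 2581 a site of any class (11.5%). Among 256 genes of adhesion and guidance receptors, 11 had an exonic site (4.30%) and 56 any site (21.9%), led by Unc5c (182.57), the adhesion receptor Gpr98 (124.05), Gpr3 (109.18) and the receptor phosphatase Ptprj (78.21). Gpr3 and Itgb3bp, a kinetochore protein gene, entered that list by the form of their symbols and not by function. Gene length was not matched in these shares.

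Of 645 genes of ion channels and transporters, 10 had an exonic site and 130 any site. The highest were the calcium release channel Ryr3 (210.17, exon 42 of 104), the GABA receptor subunit Gabrp (132.60), Slc37a2 (115.74) and Slc6a2. The 4 of 107 extracellular matrix genes were the basement membrane collagen Col4a3 (130.39), the secreted metalloprotease Adamts10 (118.17), Thbs4 (73.45) and Col8a2 (50.99). Among 103 motor protein genes, Kif27 and the myosin Myo10 (53.67) had one.

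Of 273 kinase and small GTPase regulator genes, 5 had an exonic site, which were Camk2d (124.50), Dennd5b (111.04, with 394 bp between it and a region removed for BirA), Tbc1d8b (63.30), Rasal2 (61.46) and Plekha8 (50.22). Among 122 chromatin regulators, the histone methyltransferase Nsd1 (72.66) had one. The other members were Zbtb46 (69.36) of 452 zinc finger genes, Hist2h2bb (78.45) of 71 histone genes and Wapal of 20 genes of cohesin, its regulators and Ctcf. The 1 hit among 91 symbols of ribosomal protein form was Rps6kc1 (83.79), a kinase gene. No exonic site lay in 35 Polycomb, 41 imprinted, 40 Hox, 24 clustered protocadherin or 23 pluripotency factor genes, of which 8, 10, 4, 6 and 2 had a site of another class. Over all protein-coding genes, 0.876% had an exonic site and 11.5% a site of any class. Lists this short are too small to tell the absence of an exonic site from that share.

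The limit of 2000 bp cut through a continuous range. The sites just inside it were in Arntl2, a paralogue of a clock gene (2021 bp from the TSS, score 59.24), Chst8, a sulfotransferase (2133 bp, 81.30) and Wapal (2140 bp). Just outside were sites with centres in exons of Mecom (1958 bp, 69.98), Cryzl1 (1956 bp, 177.83) and Pmm2 (1926 bp, 104.01). With no distance limit, 371 sites (4.46%) had their centre in an exon.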

How the data were processed

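Biotin pulldown DNA of 2 FB Wapal clones, a BirA line and an input was sequenced. Per the labels and the study's methods, the authors used Bowtie for alignment to mm9 and called enriched regions with MACS (1.4.2 in the submitters' processing notes). Deposited were 2 lists of regions used here, the joined Wapal list and the BirA list, with a score for each region that the authors took from MACS (-10 times log10 of p). Neither list gives reads per region, and the depth behind a region is therefore unknown. Their starts were converted to count from 1.

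Each region's centre was compared with all transcripts of GENCODE M1 on the mm9 genome (NCBI build 37); where several matched, protein-coding genes came first, then the longest coding sequence. The stop codon counted as coding. The best CTCF core match of each site was the one with fewest mismatches, nearest to the centre. With 1 list for each group no test could be run, and values are counts, medians and densities with 95% Wilson or exact Poisson intervals. Python 3.11.15, pandas 2.3.3, scipy 1.17.1 and pysam 0.24.0 were used, and the functions were tested on simulated regions.

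Sites named are the 10 of highest score, the 5 widest, the highest of each kind, genes with 2 sites, members of the gene lists (all, or the 4 highest where a list has more than 6), those beside the limit of 2000 bp, the longest exon and the closest neighbours; sequences are the 8 highest coding sites with a core match in coding bases, leaving out chromosome 18. Others (AU022252, Pde3a, Gpatch1, Etl4, Nfe2l3, Slc36a2, Cdk20, the first, single-exon and 5′ UTR sites below the highest, and the exonic regions removed by BirA) were named after their values were seen. The rule for the sites and the gene lists were chosen with earlier results of these data known. A few sites that these rules name are not reported here.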

Additional observations from a re-analysis of the deposited data

How the results depend on the processing

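No paired analysis was possible because the 2 clones are joined in 1 list, and for the same reason no replicate could be left out. Of 166 values recomputed under other settings, 144 stayed within their counting interval or, for the number of sites, a fixed tolerance, and 22 moved. Some settings changed few sites or none, so that their values could hardly move. Leaving out Y and unplaced chromosomes, for example, kept all 220 sites. The number of sites has no counting interval. Its tolerance was set by choice and kept 11 of 13 recomputed numbers, which ran from 160 to 249 against 220. With a score of at least 100 there were fewer sites by construction, 78, with a median score of 131.5, 1.45 sites per Mb of exon, 1.26 per Mb of coding sequence and 36.1% of motifs on the gene's strand. Counting any base in an exon gave 642 sites, 7.71% of all, with 64.8% coding, 64.0% in internal and 35.4% in last exons and 31.5% of motifs in an exon, so that the lead of last exons depends on the use of the centre. A distance of more than 5 kb from a TSS gave 2.13% of sites as exonic. With 1 transcript for each gene the exonic share was 2.15% and the coding share 44.1%, and with protein-coding transcripts alone the coding share was 46.5%. Placing sites by their motif, which keeps only sites with one, gave 30% coding, 100% with a motif and 98.8% of motifs in an exon. With no mismatch allowed 27.7% of exonic sites had a motif, with 2 allowed 97.7%, and within 200 bp of the centre 63.2%, of which 88.5% were in an exon. The share of exonic regions removed by BirA ranged from 1.33% to 3.54%. Leaving out the site in Wapal, a setting chosen after seeing the data, moved no value, which a single site of 220 could hardly do. The lists give no reads for a region, and regions below their score minimum cannot be called unbound.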

Other observations

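Of the 6 exonic regions removed because they shared a base with a BirA region, Frem2 (205.59) and Rdh13 (176.91) had a core match with 1 mismatch, while Hist1h2be (99.90), Dennd5b (89.02) and Zscan22 (64.51) had 3 and Gm13230 (50.68) had 4. Dennd5b thus had both a removed region, in its 3′ UTR, and a kept one in the coding part of its last exon, with 394 bp between them.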
